A study of Mus musculus with 8 samples.

Results

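The 40 genes described here encode the interstitial matrix of the lung and the cells that usually make it: collagens, elastic fibre proteins, matrix glycoproteins and proteoglycans, platelet-derived growth factor (PDGF) receptors, contractile and cytoskeletal proteins, and mesenchymal transcription factors. They were taken by gene symbol from a list chosen with earlier results of these data known. All 40 were measured, out of 24306 genes with a named spot on the array. They were represented by 104 spots, 18 genes by 1 spot and 22 by several, and each gene was read from its brightest spot, by the mean of the 8 arrays. The samples were alveolar epithelial cells of type II (AECII) and type I (AECI), FACS-sorted from the lungs of mouse embryos at E18.5 (embryonic days are written with E), with 1 single-colour array (Cy5) per sample and 2 µg of amplified cDNA on each. The 4 groups of 2 arrays were experimental AECII, control AECII, experimental AECI and control AECI. Experimental embryos were of the genotype labelled Fgfr2bflox, and their mothers were given tamoxifen on E14.5 and again on E15.5. Control embryos had other mothers, with identical handling, and the effects of genotype and of litter cannot be told apart. The series title places the loss of Fgfr2b signalling in Sftpc-expressing cells. Not given in the sources used here are the Cre allele, the full control genotype, how the cells were gated and how many embryos went into a sample.

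In the late fetal lung the interstitial matrix is laid down mainly by fibroblasts, myofibroblasts, smooth muscle and pericytes beneath the epithelium. Fibrillar collagens give tensile strength, whereas elastin is deposited on fibrillin microfibrils, guided by fibulins and cross-linked by lysyl oxidases, and gives the lung its recoil. Epithelial cells mainly make basement membrane, but they also express some interstitial matrix genes. In a sorted population, signal of a stromal gene can come from the sorted cells or from other cells carried along, and in bulk samples fewer cells of a type and less RNA per cell cannot be told apart.

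The promoters below belong to collagen genes with 1 listed start in the promoter table. They are Col1a2 and Col3a1, lower in AECII than in AECI, Col6a1, higher in AECII, and Col6a3, a partner of Col6a1 in the collagen VI trimer that was not called. Col1a1 and Col6a2, also called in that comparison, are not shown. The 250 bases before the annotated start of each are shown from RefSeq (GRCm38.p6), at chr6:4505368-4505617 (plus strand) for Col1a2, chr1:45311288-45311537 (plus strand) for Col3a1, chr10:76726045-76726294 (minus strand) for Col6a1 and chr1:90843972-90844221 (minus strand) for Col6a3. Capitals mark matches of either strand to any of 3 promoter motifs. The CCAAT box is read as ATTGG where it lies on the opposite strand. The TATAA box is likewise read as TTATA there. The GC box GGGCGG is found on the opposite strand as CCGCCC.
Col1a2: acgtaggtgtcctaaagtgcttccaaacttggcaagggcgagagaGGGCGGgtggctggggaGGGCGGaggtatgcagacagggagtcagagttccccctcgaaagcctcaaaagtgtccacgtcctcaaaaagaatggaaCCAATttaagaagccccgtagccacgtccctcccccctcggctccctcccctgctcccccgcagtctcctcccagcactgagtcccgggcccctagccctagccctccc
Col3a1: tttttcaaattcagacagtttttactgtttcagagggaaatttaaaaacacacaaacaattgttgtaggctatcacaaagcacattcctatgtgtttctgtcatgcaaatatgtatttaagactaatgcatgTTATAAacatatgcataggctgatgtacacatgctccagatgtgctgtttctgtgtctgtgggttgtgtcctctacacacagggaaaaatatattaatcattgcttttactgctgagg
Col6a1: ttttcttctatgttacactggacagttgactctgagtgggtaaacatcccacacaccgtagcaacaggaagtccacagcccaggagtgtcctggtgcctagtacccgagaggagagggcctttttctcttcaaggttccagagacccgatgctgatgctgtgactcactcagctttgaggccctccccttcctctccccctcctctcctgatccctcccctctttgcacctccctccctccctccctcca
Col6a3: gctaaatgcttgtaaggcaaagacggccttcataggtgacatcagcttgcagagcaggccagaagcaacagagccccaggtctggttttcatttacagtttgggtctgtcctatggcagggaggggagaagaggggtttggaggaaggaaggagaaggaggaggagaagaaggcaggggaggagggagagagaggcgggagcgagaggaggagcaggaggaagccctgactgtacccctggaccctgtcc
The Col1a2 window held 2 GGGCGG boxes and 1 CCAAT box, which begins 109 bases before the start. The Col3a1 window held TATAA on both strands, overlapping in a single run of 6 letters that begins 118 bases before the start. The windows of Col6a1 and Col6a3 held none of the 3 motifs. CCAAT occurred in 33.8% of 32817 promoter windows of this length, TATAA in 22.8% and GGGCGG in 32.7%. Of the 40 genes, 21 were in the promoter table and 16 had 1 listed start there, of which 4 held CCAAT, 5 TATAA and 7 GGGCGG.

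Values are log2 signals, so a difference of 1 is a 2-fold difference. Brightness differs between probes for reasons other than RNA level, so levels are compared between groups and not between genes. Averaged over the 40 genes, the signal was 7.96 and 7.94 in experimental AECII, 7.75 and 7.58 in control AECII, 8.95 and 8.83 in experimental AECI and 8.12 and 8.46 in control AECI. All 4 AECI arrays lay above all 4 AECII arrays, and in both populations the experimental arrays lay above the controls. The mean over all genes differed little between arrays, with a range of 6.27 to 6.37. It, too, was higher on the experimental arrays than on the controls in both populations. Replicates of the 40 genes differed most in control AECI, where the median SD was 0.402, against 0.248 in experimental AECII, 0.172 in control AECII and 0.258 in experimental AECI. In control AECI the first array read below the second for 25 of the 40 genes. Twist1 and Col5a2 had mean signals of 2.87 and 2.97, below the lower quartile of all spots (3.07), where differences are approximate. Group means of Dcn (control AECII), Fbln2 (experimental AECII) and Col14a1 (both control groups) also lay below it.

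**Figure D1:**
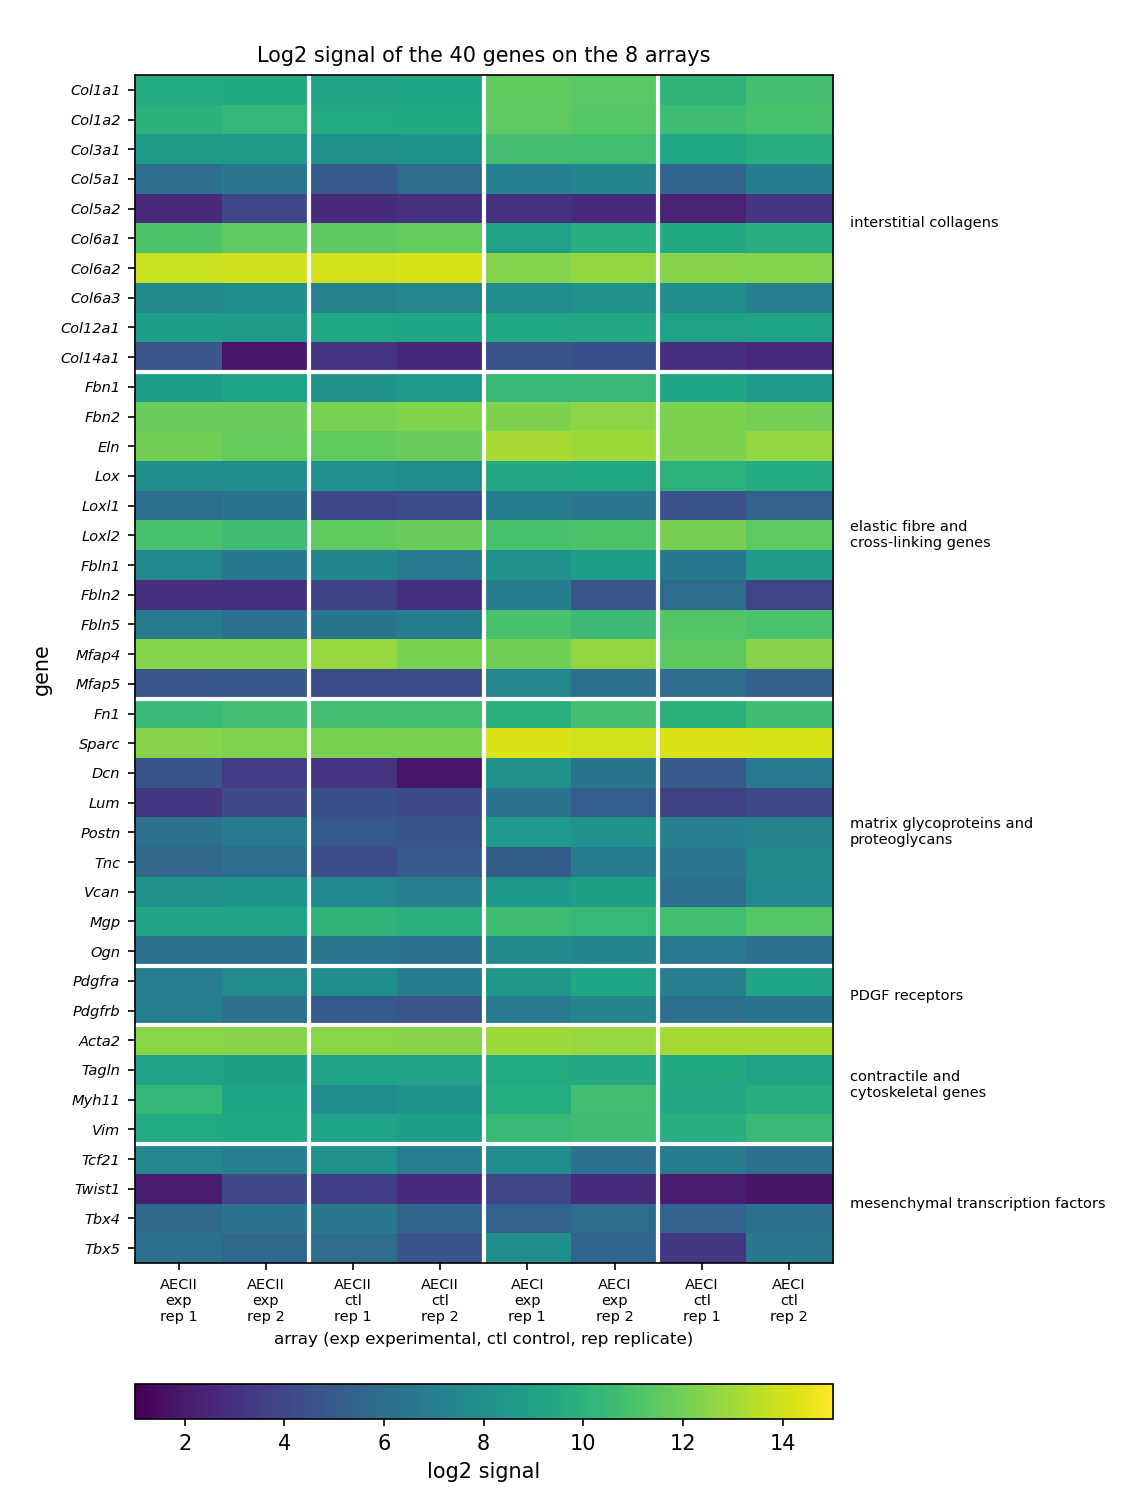
Log2 signal (colour) of the 40 genes (rows, grouped by role) on each of the 8 arrays (columns, 2 per group). Fbln5, Sparc, Col1a1, Col1a2 and Col3a1 are brighter in the 4 AECI columns, and Col6a1 and Col6a2 in the 4 AECII columns.

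All 8 arrays carried signal of general epithelial markers. Epcam read 10.91 to 11.70, Cdh1 8.88 to 9.49 and Nkx2-1 13.59 to 13.99 over the 8 arrays. Markers that tell AECII from AECI are not given here. Fgfr2 read 12.24 and 12.33 in experimental AECII, 12.60 and 12.62 in control AECII, 11.07 and 11.38 in experimental AECI and 11.03 and 11.37 in control AECI, and a probe outside the floxed part would not register its loss. Xist was low and the Y-linked Eif2s3y high on 2 arrays, control AECI replicate 1 and control AECII replicate 2. These male-pattern arrays were both controls, and the calls among the 40 genes are also given without them. The design names the replicates as biological without saying whether they are separate animals, so a p-value reflects only how far these samples spread.

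The comparison of AECII with AECI asks which matrix genes differed between the sorted populations. Averaged over both genotypes, 2 of the 40 genes were higher in AECII, the collagen VI genes Col6a1 and Col6a2, and 12 were lower. The lower genes were Col1a1, Col1a2, Col3a1, Eln, Lox, Fbln5, Mfap5, Sparc, Dcn, Postn, Mgp and Vim, with differences between -4.38 (Fbln5) and -1.01 (Eln). Over all genes, 4.69% were called higher and 3.62% lower, 8.31% together (limma, adjusted p under 0.05). The arrays did not overlap for 2 genes that were higher in AECII (9.01% of all genes) and 15 that were lower (6.85%). The median difference of the 40 genes was -0.83, with 32 below 0, against a median of -0.02 over all genes. In experimental lungs 7 of the 40 were called (2.54% of all genes), 2 higher (1.28%) and 5 lower (1.27%), and arrays did not overlap for 2 higher (28.2%) and 26 lower (26.7%). In control lungs 7 were called (2.83%), again 2 higher (1.3%) and 5 lower (1.53%), and arrays did not overlap for 7 higher (23.5%) and 19 lower (22.1%). An unadjusted p under 0.05 was found for 19 of the 40 in experimental lungs (21.6% of all genes) and for 18 in control lungs (16.7%). Col3a1, Col6a1, Col6a2, Fbln5, Sparc and Postn were called in both, Col1a1 in experimental lungs and Lox in control lungs, and the difference between these 2 comparisons was not past the threshold for any of the 40.

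**Figure D2:**
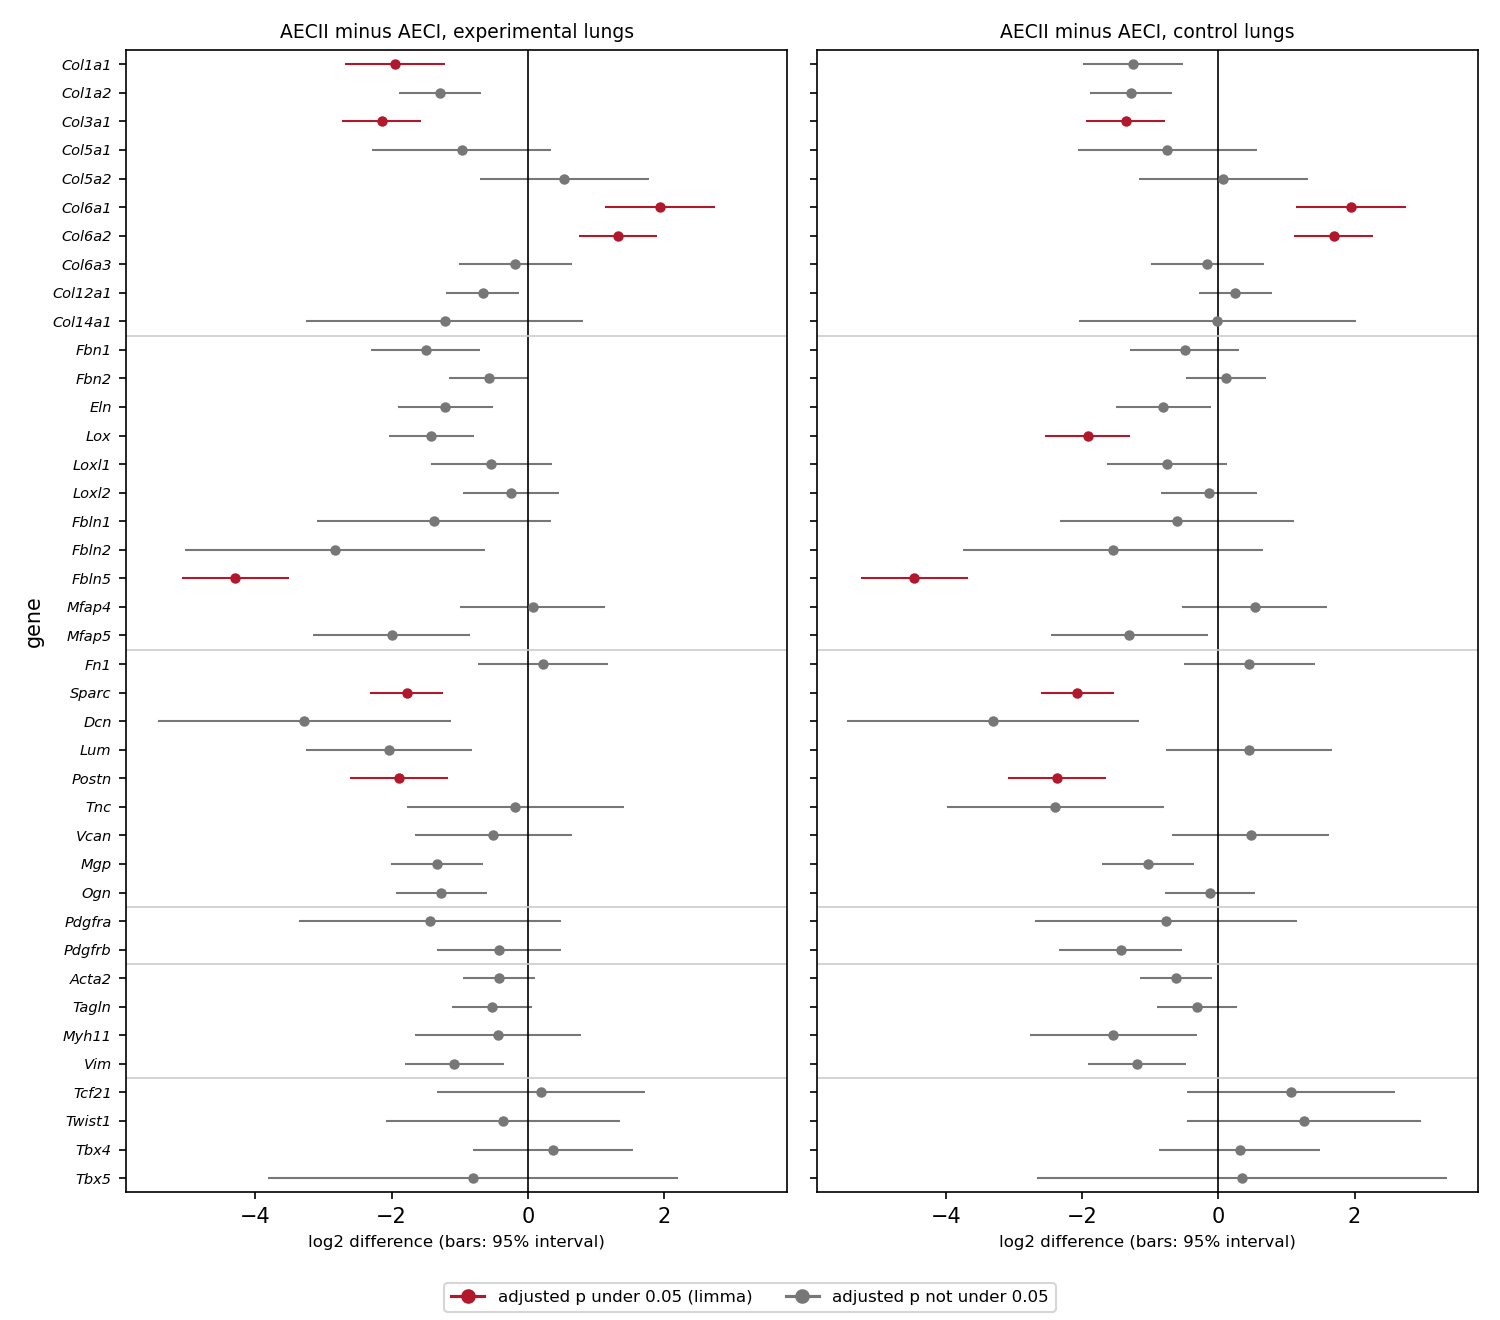
Log2 difference of AECII minus AECI for the 40 genes (rows) with 95% intervals, in experimental lungs (left) and control lungs (right). Red points had an adjusted p under 0.05 (limma, over all genes): 7 genes in each panel, with Col6a1 and Col6a2 to the right of 0 and the other 5 to the left.

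Among the interstitial collagens, 3 of 10 were called lower in AECII (3.62% of all genes) and 2 higher (4.69%). Of the 10 differences, 7 lay below 0. Col1a1, which encodes the alpha 1 chain of collagen I, read 9.60 and 9.49 in experimental AECII, 9.17 and 9.28 in control AECII, 11.60 and 11.40 in experimental AECI and 10.12 and 10.84 in control AECI. Its AECII arrays all lay below its AECI arrays, and it fell by 1.61 (SE 0.21, limma adjusted p = 0.00947). The 21 of its 22 spots that were brighter than the median spot all gave the same sign, with differences from -1.66 to -1.30. These spots read the same samples and are not independent of each other. Col1a2, the partner chain of collagen I, read 10.02 and 10.25 in experimental AECII, 9.57 and 9.50 in control AECII, 11.53 and 11.30 in experimental AECI and 10.65 and 10.98 in control AECI and fell by 1.28 (SE 0.18, limma adjusted p = 0.0105). Col3a1, the single chain of collagen III, read 8.75 and 8.62 in experimental AECII, 8.15 and 8.27 in control AECII, 10.87 and 10.78 in experimental AECI and 9.40 and 9.75 in control AECI. It fell by 1.75 (SE 0.17, limma adjusted p = 0.00392), a 3.37-fold difference, and its 4 AECI arrays all exceeded its 4 AECII arrays.

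Collagen VI forms beaded microfilaments from 3 chains. Col6a1 read 11.15 and 11.51 in experimental AECII, 11.48 and 11.70 in control AECII, 9.01 and 9.77 in experimental AECI and 9.53 and 9.75 in control AECI, so every AECII array lay above every AECI array. It rose by 1.95 (SE 0.23, limma adjusted p = 0.00716), a 3.85-fold difference. Col6a2 read 13.80 and 13.98 in experimental AECII, 14.06 and 14.22 in control AECII, 12.42 and 12.72 in experimental AECI and 12.48 and 12.41 in control AECI and rose by 1.51 (SE 0.17, limma adjusted p = 0.00589). All 3 Col6a2 spots had the same sign, with differences from 1.51 to 2.19. Col6a3, the largest chain, read 7.67 and 7.91 in experimental AECII, 7.26 and 7.46 in control AECII, 7.78 and 8.17 in experimental AECI and 7.93 and 7.11 in control AECI, and its groups overlapped. Its difference of -0.17 (SE 0.24, limma adjusted p = 0.713) had a 95% interval of -0.76 to 0.42. Col12a1, a fibril-associated collagen, read 8.81 and 8.66 in experimental AECII, 9.35 and 9.30 in control AECII, 9.36 and 9.43 in experimental AECI and 8.99 and 9.15 in control AECI. Its 3 other spots gave AECII minus AECI differences of the other sign, up to 0.70, against -0.21 on the brightest spot. Col5a1, a regulatory chain of collagen V, read 6.03 and 6.58 in experimental AECII, 5.06 and 5.94 in control AECII, 7.15 and 7.40 in experimental AECI and 5.55 and 6.95 in control AECI, and Col14a1, also fibril-associated, had an SD of 1.99 in experimental AECII.

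Among the elastic fibre and cross-linking genes, 4 of 11 were called lower in AECII (3.62% of all genes) and none higher (4.69%). Of the 11 differences, 10 lay below 0. Fbln5, which encodes fibulin-5, a protein that helps elastin assemble, had the largest difference of the 40 genes, and it read 6.75 and 6.24 in experimental AECII, 6.42 and 6.95 in control AECII, 10.98 and 10.60 in experimental AECI and 11.28 and 11.01 in control AECI. The 2 sets of arrays lay far apart in both genotypes. Fbln5 fell by 4.38 (SE 0.23, limma adjusted p = 0.000865), a 20.8-fold difference, and all 3 of its spots had the same sign, from -4.38 to -3.62. Eln, which encodes elastin, read 12.04 and 11.67 in experimental AECII, 11.57 and 11.79 in control AECII, 13.16 and 12.97 in experimental AECI and 12.24 and 12.74 in control AECI and fell by 1.01 (SE 0.20, limma adjusted p = 0.0348). Lox, a lysyl oxidase that cross-links collagen and elastin, read 8.0 and 7.92 in experimental AECII, 8.04 and 7.81 in control AECII, 9.44 and 9.32 in experimental AECI and 10.06 and 9.62 in control AECI. Both of its spots were lower in AECII, and it fell by 1.67 (SE 0.18, limma adjusted p = 0.00545). Mfap5, a microfibril-associated glycoprotein, read 4.75 and 4.82 in experimental AECII, 4.33 and 4.35 in control AECII, 7.46 and 6.11 in experimental AECI and 5.98 and 5.32 in control AECI and fell by 1.65 (SE 0.34, limma adjusted p = 0.0358). Loxl1 and Loxl2 encode further lysyl oxidases, with AECII minus AECI differences of -0.65 (SE 0.26, limma adjusted p = 0.188) for Loxl1 and -0.19 (SE 0.20, limma adjusted p = 0.623) for Loxl2. Fbn1, which encodes the main fibrillin, read 8.78 and 9.13 in experimental AECII, 8.19 and 8.57 in control AECII, 10.47 and 10.43 in experimental AECI and 9.24 and 8.51 in control AECI, with a difference of -1.0 (SE 0.23, limma adjusted p = 0.0536). Fbln2, another fibulin, read 2.93 to 3.76 in AECII and 3.86 to 6.86 in AECI, and its difference of -2.19 (SE 0.64, limma adjusted p = 0.0961) was not past the threshold. The difference was -0.23 (SE 0.17, limma adjusted p = 0.466) for Fbn2, -0.99 (SE 0.50, limma adjusted p = 0.283) for Fbln1 and 0.31 (SE 0.31, limma adjusted p = 0.602) for Mfap4.

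Among the matrix glycoproteins and proteoglycans, 4 of 9 were called lower in AECII (3.62% of all genes) and none higher (4.69%). Of the 9 differences, 8 lay below 0. Sparc, a collagen-binding protein, read 12.44 and 12.31 in experimental AECII, 12.20 and 12.16 in control AECII, 14.24 and 14.06 in experimental AECI and 14.27 and 14.23 in control AECI. It fell by 1.92 (SE 0.16, limma adjusted p = 0.00247), with SDs within groups that were small beside this difference. The dimmest Sparc spot differed by -0.11. Postn, which encodes periostin, read 6.20 and 6.71 in experimental AECII, 4.99 and 4.63 in control AECII, 8.52 and 8.17 in experimental AECI and 7.10 and 7.26 in control AECI, and each of the 4 groups was separate from the other 3. It fell by 2.13 (SE 0.21, limma adjusted p = 0.00416), and all 3 of its brighter spots had the same sign. Dcn, which encodes decorin, a small leucine-rich proteoglycan, read 4.65 and 3.44 in experimental AECII, 3.19 and 1.88 in control AECII, 8.22 and 6.43 in experimental AECI and 4.99 and 6.69 in control AECI. Its SD within groups reached 1.27, and it fell by 3.29 (SE 0.63, limma adjusted p = 0.0294) with the widest interval of the 14 called genes, -4.81 to -1.78. The size of this difference is approximate, since the control AECII mean of 2.53 lay below the lower quartile of all spots. Mgp, which encodes matrix Gla protein, an inhibitor of calcification, read 9.17 and 9.19 in experimental AECII, 10.09 and 9.90 in control AECII, 10.64 and 10.38 in experimental AECI and 10.75 and 11.30 in control AECI and fell by 1.18 (SE 0.20, limma adjusted p = 0.0192). Of the genes that did not pass, Tnc, which encodes tenascin-C, had a difference of -1.29 (SE 0.47, limma adjusted p = 0.153) and Ogn, a small proteoglycan, of -0.70 (SE 0.19, limma adjusted p = 0.0854). Fn1, which encodes fibronectin, had a difference of 0.34 (SE 0.28, limma adjusted p = 0.511), and Vcan, a large proteoglycan, of -0.02 (SE 0.34, limma adjusted p = 0.984). Lum, which encodes lumican, read 3.20 and 4.26 in experimental AECII, 4.44 and 4.25 in control AECII, 6.34 and 5.19 in experimental AECI and 3.71 and 4.08 in control AECI.

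Of the cytoskeletal genes, Vim, the intermediate filament gene typical of mesenchymal cells, read 9.58 and 9.40 in experimental AECII, 9.10 and 8.85 in control AECII, 10.43 and 10.70 in experimental AECI and 9.86 and 10.48 in control AECI and fell by 1.13 (SE 0.21, limma adjusted p = 0.0276). The smooth muscle genes were not called. Acta2, smooth muscle actin, read 12.51 and 12.44 in experimental AECII, 12.54 and 12.45 in control AECII, 12.96 and 12.83 in experimental AECI and 13.09 and 13.14 in control AECI, with a difference of -0.52 (SE 0.15, limma adjusted p = 0.0983). Tagln, an actin-binding protein of smooth muscle, read 9.08 and 8.88 in experimental AECII, 8.99 and 9.05 in control AECII, 9.55 and 9.45 in experimental AECI and 9.51 and 9.16 in control AECI, with a difference of -0.42 (SE 0.17, limma adjusted p = 0.198). Myh11, smooth muscle myosin, read 10.32 and 9.24 in experimental AECII, 7.78 and 8.26 in control AECII, 9.68 and 10.76 in experimental AECI and 9.42 and 9.70 in control AECI, and its population difference of -0.99 (SE 0.36, limma adjusted p = 0.152) rested on groups that overlapped. Neither PDGF receptor was called. Pdgfra, the receptor of alveolar myofibroblast precursors, read 6.98 and 7.77 in experimental AECII, 7.98 and 6.89 in control AECII, 8.39 and 9.25 in experimental AECI and 7.10 and 9.29 in control AECI, and its groups overlapped. Pdgfrb, the pericyte receptor, read 7.03 and 6.25 in experimental AECII, 4.97 and 4.74 in control AECII, 6.72 and 7.41 in experimental AECI and 6.17 and 6.42 in control AECI, and its AECII minus AECI difference was -0.93 (SE 0.27, limma adjusted p = 0.0898).

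None of the 4 mesenchymal transcription factors was called, and 3 of the 4 had differences above 0. Tcf21 read 7.46 and 6.96 in experimental AECII, 8.17 and 7.01 in control AECII, 7.76 and 6.27 in experimental AECI and 6.92 and 6.14 in control AECI. Tbx5 read 6.16 and 5.74 in experimental AECII, 5.97 and 4.59 in control AECII, 7.97 and 5.54 in experimental AECI and 3.28 and 6.57 in control AECI, and its SD of 2.32 in control AECI was the largest of the 40 genes there. Twist1 read 2.07 to 3.97 in AECII and 1.72 to 3.94 in AECI. The interval of the AECII minus AECI difference was -0.45 to 1.71 for Tcf21, -0.49 to 1.17 for Tbx4, -2.36 to 1.90 for Tbx5 and -0.77 to 1.66 for Twist1.

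**Figure D3:**
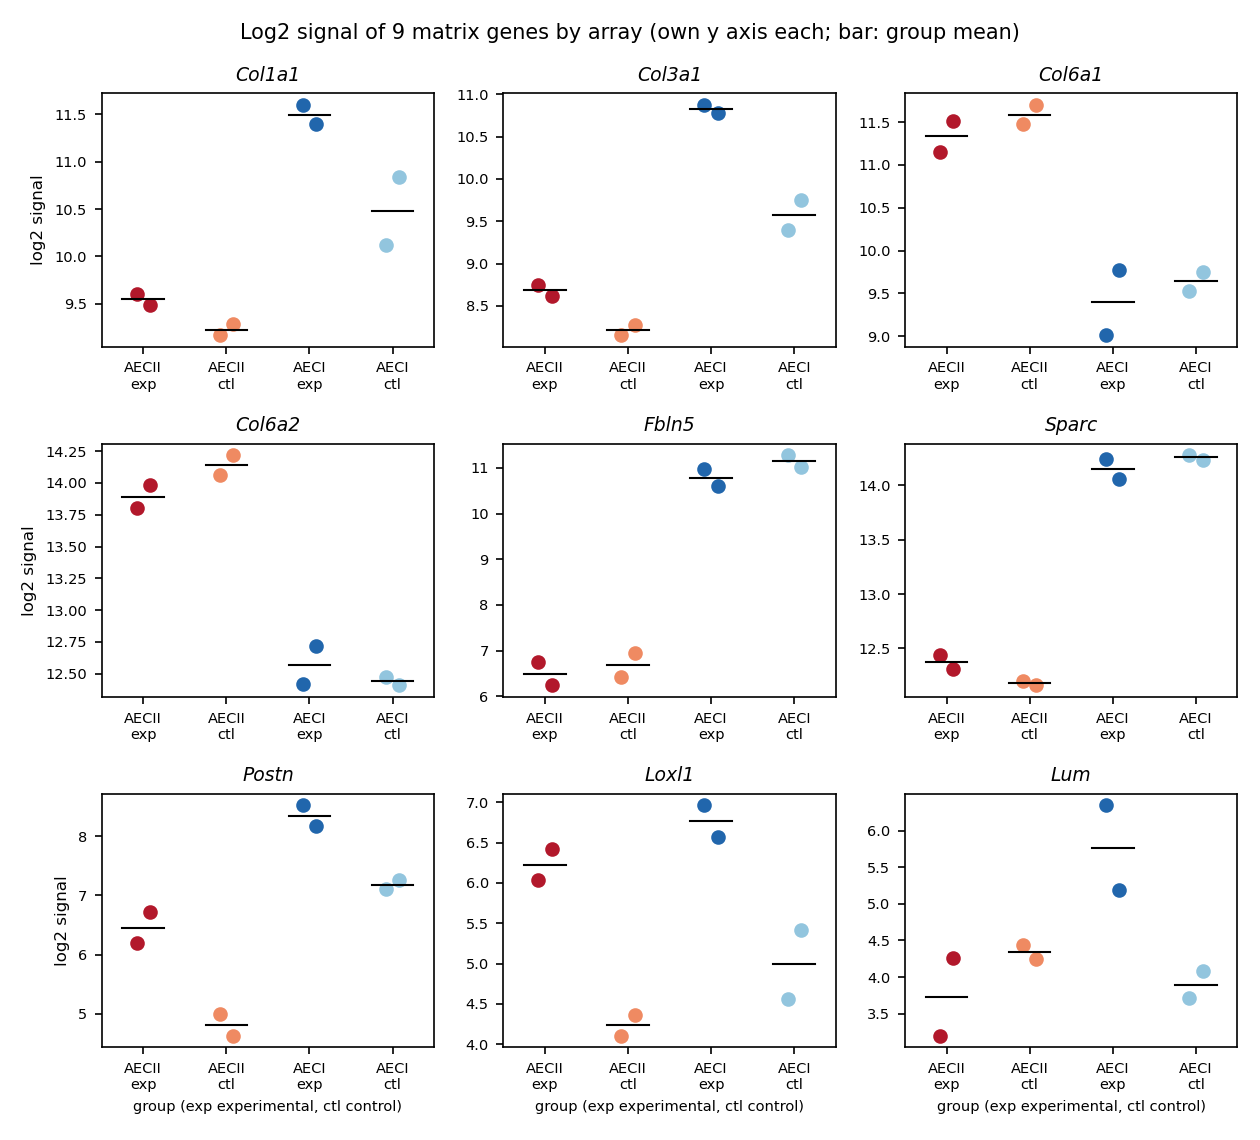
Log2 signal of 9 of the genes on each array (points) with group means (bars), experimental (exp) and control (ctl), each panel with its own y axis. AECII and AECI arrays separate without overlap for Col1a1, Col3a1, Col6a1, Col6a2, Fbln5, Sparc and Postn, whereas for Loxl1 the experimental arrays lie above the controls in both populations, and Lum is high in experimental AECI.

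The number of calls depended on single arrays. With each array left out in turn, which leaves 1 array in a group, every fit called fewer of the 40 genes than the fit of all 8 arrays. Every such fit also called fewer of all genes. All 14 called genes kept the sign of their averaged difference, which lay between -4.51 and -4.25 for Fbln5 and between -1.14 and -0.88 for Eln. Col3a1, Col6a1, Col6a2, Lox, Fbln5, Sparc and Postn were called in all 8 of these fits. Eln was called in 1 of them, Dcn and Vim in 2, Mfap5 and Mgp in 3, and Col1a1 and Col1a2 in 5. Without both male-pattern arrays only Fbln5 was called, at -4.45 (SE 0.29, limma adjusted p = 0.0409), against 0.358% of all genes, and the median difference of the 40 genes was -0.92. Without them the arrays did not overlap for 2 genes that were higher in AECII (14.1% of all genes) and 18 that were lower (11.7%), and 20 had an unadjusted p under 0.05 (20.2%). Within one genotype none of the 40 was called when only the arrays compared were fitted, in experimental or in control lungs. No gene of all 24306 was called there either, so this does not set the 40 apart. Leaving out both male-pattern arrays leaves 1 array in each control group, and calls within one genotype were then lost for all genes alike. The median difference of the 40 was then -0.89 in experimental and -0.60 in control lungs. Within one genotype, too, every fit without 1 array called fewer of the 40 and fewer of all genes than the fit of all 8 arrays. In some of them no gene of the 40, or of all genes, was called. The Fbln5 difference in these fits lay between -4.55 and -4.04 in experimental lungs and between -4.73 and -4.20 in control lungs.

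Markers of other cells moved with this comparison. Averaged over 9 mesothelial markers, the signal was 4.18 to 4.48 on the AECII arrays and 6.11 to 7.24 on the AECI arrays. Of the 9, 5 fell (Upk3b, Gpm6a, Msln, Upk1b and Rspo1), against 3.62% of all genes. Upk3b, a marker of lung mesothelium, read 2.87 and 2.03 in experimental AECII, 2.14 and 3.76 in control AECII, 9.69 and 9.17 in experimental AECI and 8.45 and 8.15 in control AECI. Wt1 read 9.35 to 10.30 in AECII and 9.57 to 10.20 in AECI. Over 24 other stromal cell markers the mean signal was 5.76 to 6.05 in AECII and 6.20 to 6.59 in AECI. Of these 24 genes, Foxf1, Hhip, Npnt and Rgs5 fell (3.62% of all genes) and G0s2 rose (4.69%), with a median difference of -0.64. The fibroblast markers Meox2 and Wnt2 read 2.47 to 5.30 on all arrays. Over 15 epithelial markers the mean was 10.94 to 11.16 in AECII and 11.52 to 11.71 in AECI. Of these 15, Krt7, Krt19, Cldn4, Krt8 and Krt18 fell (3.62% of all genes). The median difference of the 15 was 0.02, with 8 above 0 and 7 below. Leukocyte markers had a mean signal of 7.0 to 7.65 in AECII and 6.44 to 6.80 in AECI, and endothelial markers 5.14 to 5.86 in AECII and 4.91 to 5.42 in AECI. Without both male-pattern arrays calls were lost in the mesothelial, other stromal and epithelial lists, as over all genes. The median difference was then -1.63 over the mesothelial, -0.61 over the other stromal and 0.06 over the epithelial markers. The part of these cells in the matrix gene differences was not tested.

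**Figure D4:**
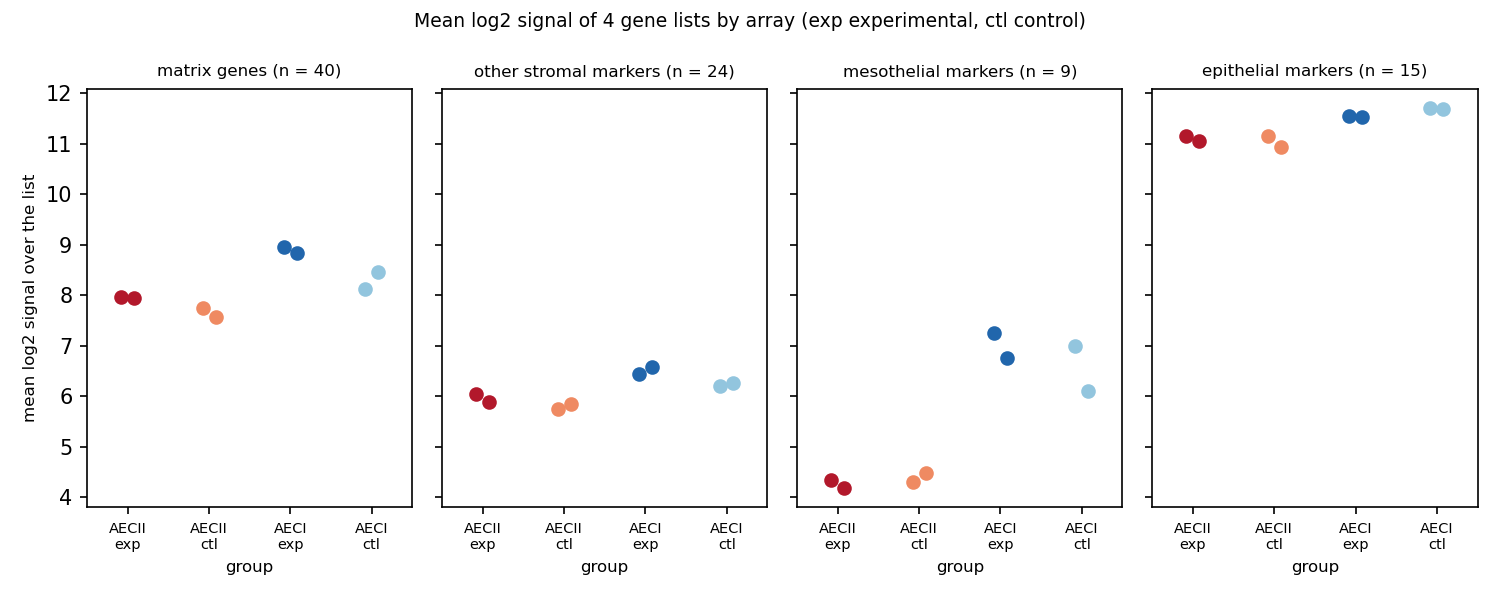
Mean log2 signal per array (points) over the 40 matrix genes, 24 other stromal markers, 9 mesothelial markers and 15 epithelial markers, experimental (exp) and control (ctl). In all 4 panels the AECI arrays lie above the AECII arrays, by the widest margin for the mesothelial markers (6.11 to 7.24 against 4.18 to 4.48). Gene by gene, 8 of the 15 epithelial markers were higher in AECII, with a median AECII minus AECI difference of 0.02.

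The enzymes that process collagen moved in both directions between AECII and AECI. Of 19 measured, 2 were higher in AECII (4.69% of all genes) and 3 lower (3.62%), with a median difference of -0.15. Pcolce, an enhancer of procollagen C-proteinase, fell by 2.73, P4ha3, a prolyl 4-hydroxylase subunit, by 2.14, and Tram2 fell as well. Bmp1, the procollagen C-proteinase, rose by 1.19 and P4ha1 by 0.78. Of 30 other interstitial matrix genes, 3 rose (Col8a2, Emilin1 and Emilin2) and 5 fell, against the same shares of all genes. The lower genes were Efemp1, a fibulin family gene, by 2.53, Fmod, which encodes fibromodulin, by 1.49, the microfibril gene Mfap2 by 1.22, Ltbp4 by 1.21 and Bgn, which encodes biglycan, by 1.20. Without both male-pattern arrays the calls of these 19 and 30 genes were lost, as were most calls over all genes. The median difference was then -0.16 over the 19 and -0.45 over the 30.

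The comparison of experimental with control lungs asks whether matrix gene signal changed where Fgfr2b had been targeted. None of the 40 genes was called in AECII or in AECI (limma). Over all genes 0% were called in AECII and 0.00411%, a single gene, in AECI. At an unadjusted p under 0.05 there were 7 genes in AECII (background 8.24%) and 9 in AECI (background 12.4%). In AECI 31 of 40 differences were above 0, with a median of 0.59 against 0.04 over all genes. The AECI arrays did not overlap for 16 genes that were higher in experimental cells (21.2% of all genes) and 5 that were lower (18.6%). In AECII 22 of 40 were above 0, with a median of 0.10 against 0.07 over all genes, and the arrays did not overlap for 16 higher (27.3% of all genes) and 5 lower (19.8%). The AECI median was 0.33 without control AECI replicate 1, one of the male-pattern arrays, and 0.36 without experimental AECI replicate 2. Without both male-pattern arrays the median of the 40 was 0.03 in AECII and 0.33 in AECI, and 6 of the 40 had an unadjusted p under 0.05 in AECII (6.03% of all genes) and 6 in AECI (13%).

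**Figure D5:**
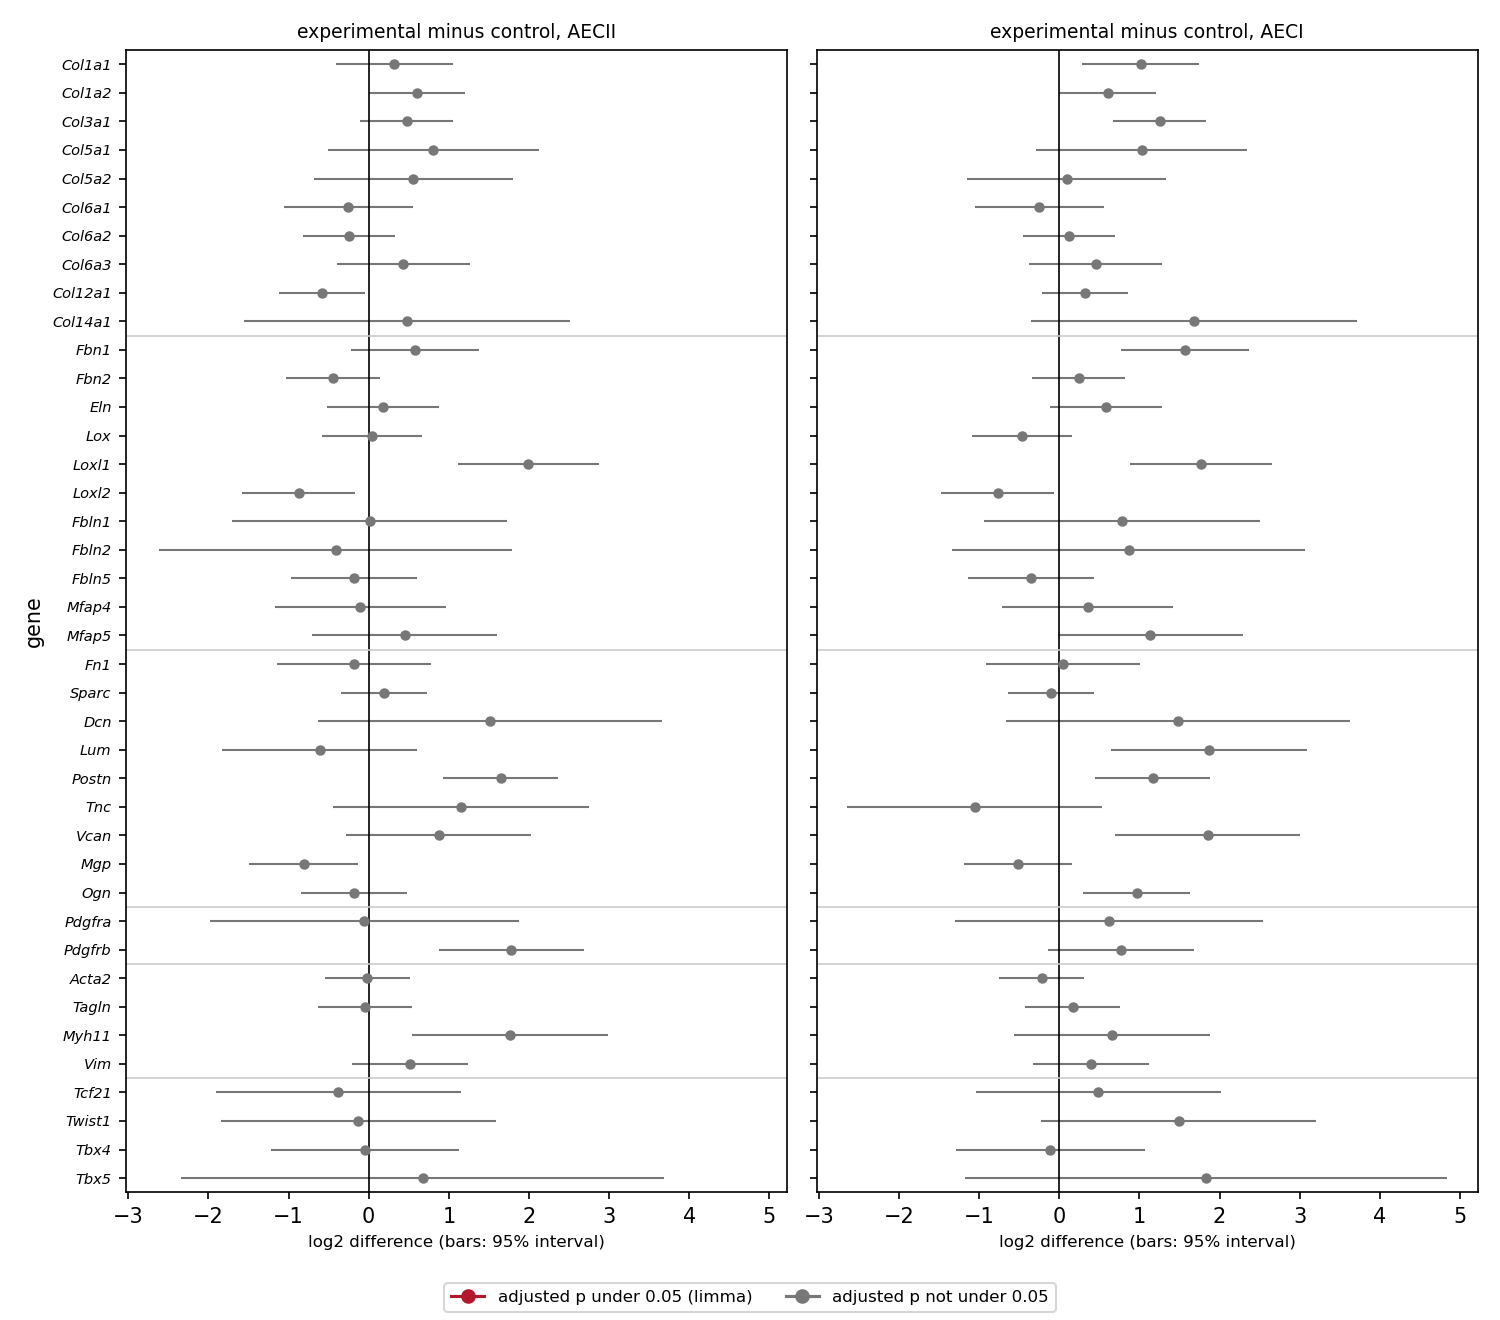
Log2 difference of experimental minus control for the 40 genes (rows) with 95% intervals, in AECII (left) and AECI (right). No gene had an adjusted p under 0.05 (limma, over all genes). Loxl1 and Postn lie to the right of 0 in both panels.

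Averaged over both populations, none of the 40 was called (limma), 29 differences were above 0 and the median was 0.38, against 0.05 over all genes. The median of the 40 was 0.20 without both male-pattern arrays. Of the 40, 11 had an unadjusted p under 0.05 (background 12.1%), 9 of them above 0. Loxl1, a lysyl oxidase that acts on elastin, read 6.03 and 6.42 in experimental AECII, 4.11 and 4.37 in control AECII, 6.96 and 6.56 in experimental AECI and 4.57 and 5.42 in control AECI, so the 4 experimental arrays lay above the 4 controls. Its difference of 1.88 (SE 0.26, limma adjusted p = 0.184) and that of Postn, 1.41 (SE 0.21, limma adjusted p = 0.184), had the lowest adjusted p of the 40. Vcan read 8.15 and 8.23 in experimental AECII, 7.55 and 7.08 in control AECII, 8.45 and 8.94 in experimental AECI and 6.17 and 7.52 in control AECI, and again every experimental array exceeded every control array. Its difference was 1.36 (SE 0.34, limma adjusted p = 0.265). Loxl2, which cross-links collagen IV as well as fibrillar collagens, read 10.96 and 10.67 in experimental AECII, 11.58 and 11.80 in control AECII, 11.00 and 11.12 in experimental AECI and 12.12 and 11.54 in control AECI and was the only one of the 40 to lie lower on all 4 experimental arrays. The Loxl2 difference was -0.82 (SE 0.20, limma adjusted p = 0.267). Separation of this kind over 4 and 4 arrays occurred upward for 2 of the 40 genes, against 2.47% of all genes, and downward for 1, against 2.21%. The dimmer Loxl2 spot did not separate in this way. It read 6.51 and 6.86 in experimental and 6.94 and 7.20 in control AECII. In AECI it read 6.94 and 8.74 in experimental and 6.37 and 7.04 in control cells.

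Of the collagens, Col3a1 differed by 0.86 (SE 0.17, limma adjusted p = 0.213), Col1a1 by 0.67 (SE 0.21, limma adjusted p = 0.326) and Col1a2 by 0.60 (SE 0.18, limma adjusted p = 0.31). All 21 brighter Col1a1 spots were higher in experimental cells, by 0.54 to 1.11. Fbn1 differed by 1.57 (SE 0.33, limma adjusted p = 0.242) in AECI, where its experimental arrays both lay above its controls. On its next brightest spot these arrays overlapped, with 6.44 and 6.34 in experimental and 5.25 and 6.54 in control AECI. Pdgfrb differed by 1.78 (SE 0.37, limma adjusted p = 0.529) in AECII and Myh11 by 1.76 (SE 0.50, limma adjusted p = 0.544). Mgp was lower in experimental AECII by a difference of -0.81 (SE 0.28, limma adjusted p = 0.564). For Acta2, too, the choice of spot mattered. The brightest spot had a difference of -0.12 (SE 0.15, limma adjusted p = 0.802), whereas the 2 next brightest spots gave 1.03 and 1.61.

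The fit with a mean-variance trend called 7 of the 40 in the averaged genotype comparison (1.33% of all genes in that fit), with Col1a2, Col3a1, Fbn1, Loxl1, Postn and Vcan higher and Loxl2 lower, and 2 in AECI (0.304% of all genes), Col3a1 and Fbn1, both higher. No other setting gave a genotype call among the 40, nor did leaving out any array or both male-pattern arrays. Outside the 40, the median genotype difference in AECI was 0.24 over 24 other stromal markers and 0.68 over 30 other interstitial matrix genes. It was -0.18 over 14 matrix turnover genes, and no gene of these lists was called. Without both male-pattern arrays these medians were 0.32, 0.34 and -0.34.

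Whether the genotype effect differed between AECII and AECI was tested directly, and none of the 40 passed (limma, background 0%). At an unadjusted p under 0.05 there were 3 genes (background 8.62%). Lum differed by -2.48 (SE 0.71, limma adjusted p = 0.538), Ogn by -1.15 (SE 0.39, limma adjusted p = 0.538) and Col12a1 by -0.91 (SE 0.31, limma adjusted p = 0.538). Lum was higher on both experimental AECI arrays than on the controls, and Ogn read 6.35 and 6.10 in experimental AECII, 6.49 and 6.32 in control AECII, 7.58 and 7.41 in experimental AECI and 6.79 and 6.27 in control AECI. The median of the 40 differences was -0.27, and 0.04 without control AECI replicate 1.

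Red cell marker signal separated the genotypes in both populations. Alas2, the heme synthesis enzyme of erythroid cells, read 6.05 and 6.02 in experimental AECII, 9.23 and 9.17 in control AECII, 3.64 and 3.77 in experimental AECI and 9.11 and 9.03 in control AECI, and in AECI its difference of -5.36 (SE 0.22, limma adjusted p = 0.00428) was the single call over all genes, and there was no call in AECI without both male-pattern arrays. Over 8 erythroid markers the mean signal was 7.18 to 7.79 in experimental AECII, 9.60 to 9.88 in control AECII, 6.19 to 7.0 in experimental AECI and 9.33 to 9.43 in control AECI. Mesothelial markers had a median genotype difference of -0.07 in AECII and 0.61 in AECI, and epithelial markers 0.09 in AECII and -0.23 in AECI. The part of carried-along cells in the genotype differences of the matrix genes was not tested.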

How the data were processed

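Expression was measured on 8 single-colour arrays, 2 in each of 4 groups, and group and replicate number come from the sample titles. The deposited values are log2 signals, which the authors had normalized between arrays: sorted by size, values of different arrays lay within 0.0056 of each other, and the median of all spots was 5.18. The submitters' processing notes name limma; for background correction and the scanner, nothing is given in the sources used here. No detection call was used, and precision is limited by how few arrays there are.

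A single gene symbol was available for 43941 of 62976 spots (69.8%), brought up to date through RefSeq (GRCm38.p6), which changed 1887 symbols but 0 of the 40 genes. Each gene was represented by its brightest spot, giving 24306 genes. Differences were tested with limma 3.58.1 (R 4.3.3), with 4 group means over all 8 arrays, eBayes without trend and Benjamini-Hochberg adjustment over all genes within each of 7 contrasts (threshold 0.05). The fit had 4 residual and 2.26 prior degrees of freedom, and intervals are at 95%. With 2 arrays a side, the smallest two-sided p of an exact permutation test is 0.333. The steps were tested on simulated data. Promoters were read and figures drawn with Python 3.11.15, pandas 2.3.3, numpy 2.4.6 and matplotlib 3.10.9.

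The 40 genes, the 6 role groups and the 10 other lists were chosen with earlier results of these data known. Array values are given for every one of the 40 past the threshold in any contrast, and in each role group for up to 3 further genes of smallest p. From the other lists up to 4 genes past the threshold and set markers are named. Where a list had 5 or fewer calls in a direction, the rest were named after their values were seen, and so were the population differences of the remaining genes. Alternatives were other spot rules, a filter on dim genes, centring, other variance priors, array weights, fewer arrays and a replicate block.

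Same-numbered arrays showed little shared deviation: the correlation of deviations between them was -0.103 to 0.04 over the 6 pairs of groups. Whether AECII and AECI samples came from the same embryos is not given. This check cannot tell, since such samples may carry different numbers.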

Additional observations from a re-analysis of the deposited data

Results flagged for a closer look

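Col12a1, which encodes a fibril-associated collagen, had genotype differences of opposite sign in the 2 populations. Experimental arrays lay below the controls in AECII (8.81 and 8.66 against 9.35 and 9.30) and above them in AECI (9.36 and 9.43 against 8.99 and 9.15). The genotype difference in AECII minus that in AECI was -0.91 and did not pass the threshold (limma adjusted p = 0.538). Equally, AECII minus AECI in experimental lungs less the same in control lungs was -0.91. Groups that separate in opposite directions occurred for 1919 genes, 7.9% of all, and for 1 of the 40. The signs were opposite on 2 of the 4 Col12a1 spots. The AECII genotype difference was below 0 on all 4, whereas the AECI difference was 0.33 on the brightest spot and -0.08, -1.24 and 0.08 on the others.

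Lum, which encodes lumican, differed between populations in opposite directions by genotype. AECII lay below AECI in experimental lungs (3.20 and 4.26 against 6.34 and 5.19) and above it in control lungs (4.44 and 4.25 against 3.71 and 4.08). The difference of these differences was -2.48 and was not past the threshold (limma adjusted p = 0.538). Lum was read from 1 spot, with a mean of 4.44, below the median of all spots (5.18). The share of all genes whose populations separate in opposite directions by genotype is not given here.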

How the results depend on the processing

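For AECII minus AECI averaged over both genotypes (14 of 40 genes called), every other spot rule, filter, prior, weighting and centring gave 12 to 18 calls (7.46 to 24.2% of all genes tested), leaving out 1 array gave 7 to 13, and leaving out both male-pattern arrays gave 1. In experimental lungs (7 called) the count was 3 with the spot of largest interquartile range, 16 among genes above the median spot (16.6% of all genes there), 17 with a mean-variance trend (11% of all genes), 0 with only the arrays compared, 0 without both male-pattern arrays and 0 to 4 with 1 array left out. In control lungs (7 called) the same settings gave 3, 12 (11.3% of all genes), 16 (7.9%), 0, 0 and 0 to 6. The trend gave 2 calls for genotype in AECI (0.304% of all genes) and 7 for genotype averaged over both populations (1.33%), against 0 in the main fit. The cause was not tested. The replicate number as a block gave 12 calls for the averaged population difference (6.02% of all genes), 3 in experimental (1.14%) and 5 in control lungs (1.28%) and 0 for genotype. A block with the numbers of the control AECII arrays crossed, chosen after seeing the data, gave 2 calls in control lungs (0.885% of all genes). The sign turned, without a call, with the mean of all spots for Col3a1 (-0.053 for genotype in AECI and 0.77 for the difference of genotype effects), Loxl2 (0.18 for genotype in AECI), Col1a2 (-0.04 for genotype over both populations) and Col6a3 (0.029 for AECII minus AECI). With the spot of largest interquartile range it turned for Col1a2 (-1.13 for genotype over both populations) and, for AECII minus AECI, for Col6a3 (0.48) and Myh11 (0.12), and without control AECI replicate 1 for Col6a3 (0.032), whose range with 1 array left out was -0.378 to 0.032. Dcn was not tested among genes above the median spot. With 2 arrays per group, a difference that missed the threshold is not shown to be absent.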

Other observations

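Basement membrane genes, the matrix that epithelial cells mainly make, also separated the populations. Of 18 measured, 10 fell in AECII and 2 rose, Lamb1 and Col18a1, with a median difference of -1.07, against 3.62% of all genes called lower and 4.69% higher. Col4a3 and Col4a4, chains of the collagen IV network of the alveolar wall, fell by 4.19 (SE 0.29) and by 2.07 (SE 0.18). Agrn, which encodes agrin, fell by 2.67 (SE 0.21) and Hspg2, which encodes perlecan, fell by 2.43 (SE 0.21). Each had an adjusted p under 0.05 (limma). Without both male-pattern arrays the calls of basement membrane and turnover genes were lost, as were most calls over all genes. The median AECII minus AECI difference was then -1.14 for the basement membrane genes and -0.90 for the turnover genes. Between genotypes no basement membrane gene was called.

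Of 14 genes of matrix turnover, 5 fell in AECII (3.62% of all genes) and 2 rose (4.69%). Timp2, an inhibitor of metalloproteinases, fell by 3.0 (SE 0.23), Mmp11, a secreted metalloproteinase, fell by 2.60 (SE 0.17) and Htra1, a serine protease, fell by 2.51 (SE 0.24). Mmp14, a membrane-bound metalloproteinase, and Timp3 also fell. Mmp15, another membrane-bound metalloproteinase, rose by 1.82 (SE 0.24), as did Adamts1 by 1.22 (SE 0.24).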
